A study of Mus musculus with 3 samples.

Results

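The Hox genes of the Hoxa, Hoxb, Hoxc and Hoxd clusters were followed through 3 mouse genital tubercles, the embryonic outgrowth from which penis or clitoris forms. Members were the probe sets annotated to exactly 1 gene symbol of these 4 clusters, from paralogue group 1 to group 13, without antisense transcripts. They came to 33 of the 18193 genes named on the Affymetrix array, read by 48 of its 45037 non-control probe sets. RefSeq lists 39 Hox genes, and the other 6 were not analysed here. All 3 samples belong to 1 group without treatment or control: embryonic day 14, Theiler stage 22, sex label male. The embryos carried the strain label FVB/N and came from FVB/N mothers and SMAA/EYFP transgenic fathers, whose transgene carries a yellow fluorescent protein. Its expression guided the dissection, and the labels do not say which cells it marks. Each sample is 1 unpooled dissection on 1 array. The landmark label alone differs, with indented footplates in replicates 1 and 2 and visible fingers in replicate 3. Nothing in the labels says whether the embryos were littermates, so the spread between samples mixes animals, dissection, amplification and hybridisation.

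Hox genes encode homeodomain transcription factors that give cells a position along the body axis. Within each cluster the genes lie in the order in which they are switched on, so that low-numbered groups act from the hindbrain backwards and high-numbered groups act at the caudal end, in the limbs and in the external genitalia. Loss of both Hoxa13 and Hoxd13 function abolishes the genital tubercle in mice. Members of 1 paralogue group descend from a common ancestor gene and often share work.

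Levels are deposited signals, which are linear array intensities on a scale set by the scanner software. Probe sets differ in brightness at equal RNA amounts, so signals are compared between samples for 1 probe set and never ranked between genes. Probe sets of smell, pheromone and taste receptors, 81 in number, served as the off state. Their 95th percentile in a sample is its background, which stood at 135.8, 253.1 and 197.48 in replicates 1, 2 and 3. The share of probe sets above it was 55.1% to 57.2% per sample. Folds and log2 values were taken after the samples had been aligned on the median of those probe sets that passed background in each. Replicate 3 goes against its male label. Xist, which coats the inactive X chromosome in female cells, read 8.05, 118 and 61883 on its leading probe set in replicates 1, 2 and 3, and of the measured Y-linked genes Eif2s3y, Kdm5d and Uty 3 of 3 exceeded background in replicates 1 and 2 and 0 in replicate 3. Its sex is in doubt, and counts are therefore also given without it. All 9 measured tubercle markers (such as Shh, Isl1 and Tbx4) exceeded background throughout, as did 61.0% of all genes on the array and, among liver genes, Alb, Afp and Ttr. In bulk RNA of this kind fewer cells of a type and less RNA per cell cannot be told apart.

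A gene was taken as above background in a sample when any of its probe sets was. By this rule 17 of 33 Hox genes (51.5%) were detected throughout, beside 61.0% of all genes on the array. By probe set the count was 21 of 48 (43.8%) beside 48.0% of all, so as a family the Hox genes were not detected more often than other genes. Along the axis the posterior groups 9 to 13 had 8 of 14 genes above background in each sample, the central groups 5 to 8 had 5 of 9 and the anterior groups 1 to 4 had 4 of 10. Below background in every sample were 1 posterior gene (Hoxb13), 3 central and 5 anterior genes. This contrast rests partly on calls near background. The posterior Hoxa13 and Hoxd12 passed in replicate 1 alone, at 1.08 and 1.10 times it, as did the central Hoxa7 at 1.18. By probe set, 33 of 48 Hox members passed in at least 1 sample, beside 64.5% of all. By cluster, Hoxa had 6 of 9 detected throughout, Hoxc 5 of 7, Hoxd 4 of 8 and Hoxb 2 of 9. Of the 9 genes below background everywhere, 6 lie in the Hoxb cluster and none in Hoxc. Without replicate 3, 18 genes passed in replicates 1 and 2 alike, 9 of them posterior. Clusters and blocks differ in probe design as well as in RNA, a part that was not tested.

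**Figure D1:**
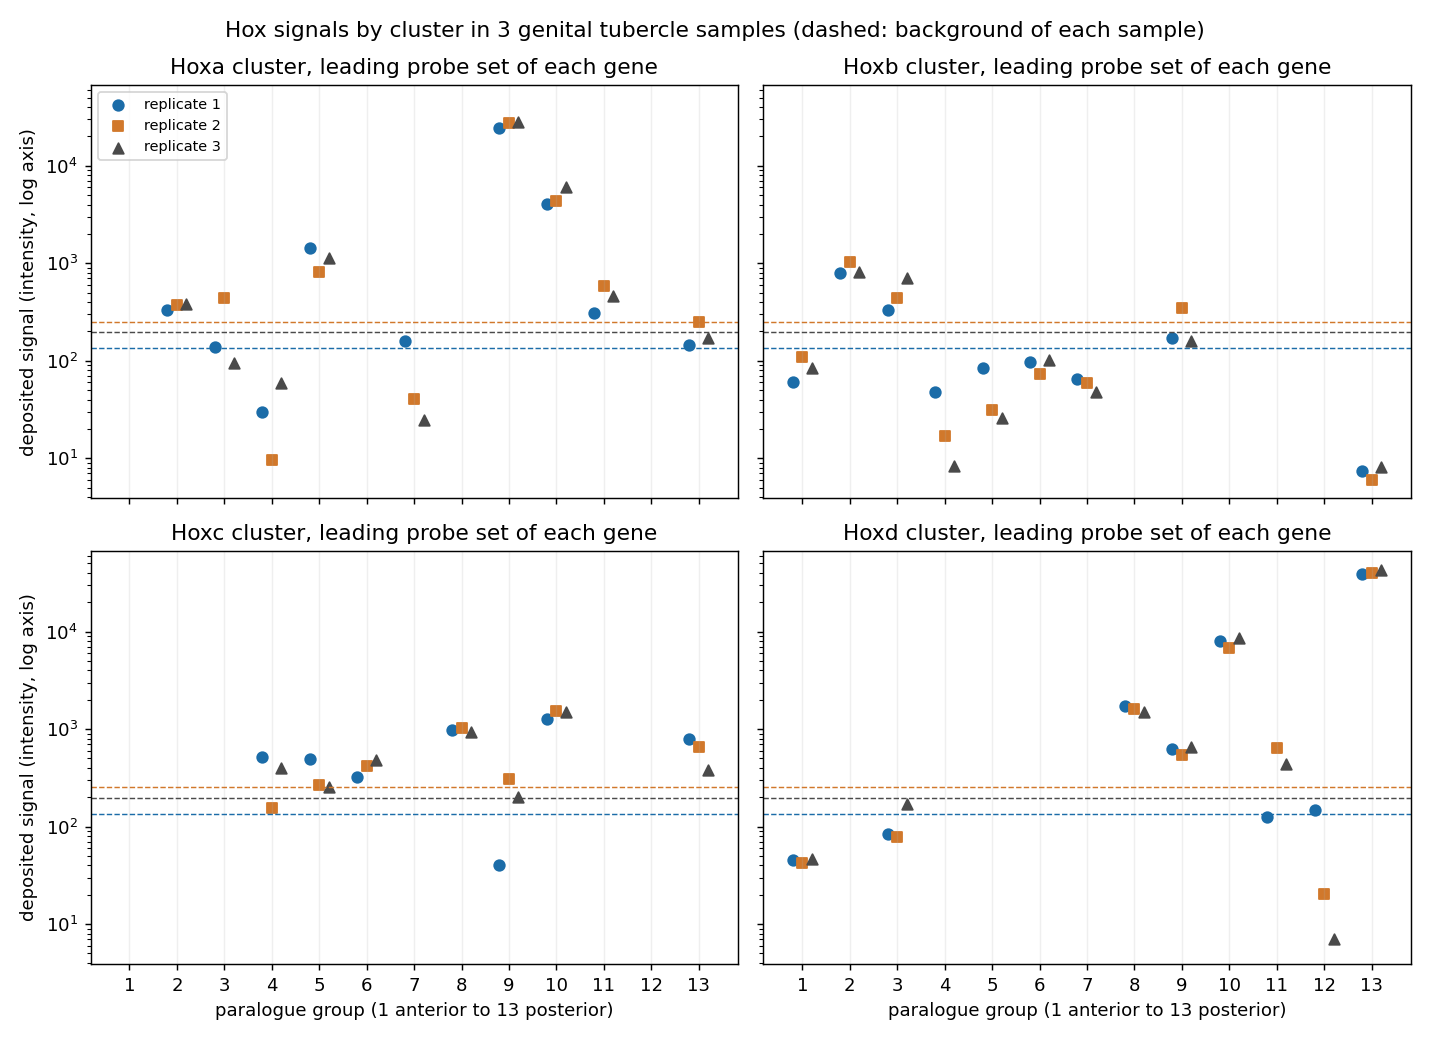
Deposited signal (log axis) of the leading probe set, the one with the highest mean, of each of 33 Hox genes, by paralogue group and cluster, with 1 point per sample and a dashed line at each sample's background. Hoxa9, Hoxa10, Hoxd10 and Hoxd13 sit far above the lines in all 3 samples, while most Hoxb points lie under them.

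Group 13 holds the genes with the most posterior action. Hoxd13, which patterns digits and tubercle, read 39032, 39846 and 43365 in replicates 1, 2 and 3, a mean of 40748 ± 2303 (SD, n = 3). Between any 2 samples it differed by at most 1.20-fold. Hoxc13, a regulator of keratin genes in hair and nail, read 799.7, 648 and 384, all above background. It was highest in replicate 1 and lowest in replicate 3, a 2.21-fold difference. Hoxa13, the partner of Hoxd13 in tubercle outgrowth, read 146, 250.4 and 170.1 on its only probe set. These values lay at 1.08, 0.99 and 0.86 times background, so replicate 1 alone passed and no difference between samples can be read from them. Hoxb13, known from prostate and tail end, read 7.40, 6.04 and 8.17, below background in every sample.

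In group 12 the only gene measured was Hoxd12, which read 149, 20.4 and 6.97 and passed in replicate 1 alone, at 1.10 times background. Of group 11, Hoxa11, a gene of the middle limb segment, the kidney and the uterus, read 312, 591 and 463, a mean of 455 ± 140 (SD, n = 3). Hoxd11, which shares those roles in limb and kidney, read 126, 641 and 443 and was below background in replicate 1. Replicate 2 was at least 4.03-fold and replicate 3 at least 3.07-fold over replicate 1, bounds taken against the background of that array. Both group 11 genes were lowest in replicate 1 and highest in replicate 2. At the level of single samples this is a difference between arrays with no replicate check.

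Group 10 was the only posterior group with each measured gene above background throughout. Hoxa10, needed for uterus development and descent of the testis, read 4088, 4398 and 5999 on its leading probe set and 3255, 3269 and 6449 on the other. Both probe sets put replicate 3 highest and replicates 1 and 2 close together. Replicate 3 minus replicate 2 came to 0.59 and 1.12 on the log2 scale. Hoxc10, a gene of lumbar motor neurons and hindlimb, read 1274, 1547 and 1484, a mean of 1435 ± 143 (SD, n = 3). Hoxd10, which acts in the same regions, read 7982, 6845 and 8599, a mean of 7809 ± 889.7 (SD, n = 3). Between any 2 samples Hoxc10 differed by at most 1.10-fold and Hoxd10 by at most 1.38-fold.

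Neighbours within the Hoxd cluster thus differed in their calls, which is why the sequence before their starts is shown here. Hoxd13 and Hoxd10 exceeded background in 3 samples, Hoxd11 in 2 and Hoxd12 in 1. Each line gives the 250 bases before a RefSeq start in build GRCm38.p6, 5′ to 3′. Capitals mark matches to ATAAA or its reverse complement TTTAT, a core bound by posterior Hox and Cdx homeodomains that TATA boxes also hold. No genome build is named for the array, and the positions belong to RefSeq alone. For Hoxd11 the first of its RefSeq starts is shown. For Hoxd10 the only start at hand is shown, which lies inside the RefSeq span of the gene (chr2:74684273-74695106), not at its outer end.
Hoxd13, chr2:74667975-74668224, plus strand: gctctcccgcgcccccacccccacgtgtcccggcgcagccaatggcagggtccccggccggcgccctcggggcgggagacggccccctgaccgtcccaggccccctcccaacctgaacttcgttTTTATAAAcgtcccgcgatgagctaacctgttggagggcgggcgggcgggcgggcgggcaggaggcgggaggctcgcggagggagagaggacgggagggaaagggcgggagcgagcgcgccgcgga
Hoxd12, chr2:74674763-74675012, plus strand: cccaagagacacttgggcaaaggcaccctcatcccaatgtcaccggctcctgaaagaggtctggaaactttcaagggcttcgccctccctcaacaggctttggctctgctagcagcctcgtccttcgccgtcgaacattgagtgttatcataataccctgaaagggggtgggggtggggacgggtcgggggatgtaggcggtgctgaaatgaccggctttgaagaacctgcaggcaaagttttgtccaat
Hoxd11, chr2:74679308-74679557, plus strand: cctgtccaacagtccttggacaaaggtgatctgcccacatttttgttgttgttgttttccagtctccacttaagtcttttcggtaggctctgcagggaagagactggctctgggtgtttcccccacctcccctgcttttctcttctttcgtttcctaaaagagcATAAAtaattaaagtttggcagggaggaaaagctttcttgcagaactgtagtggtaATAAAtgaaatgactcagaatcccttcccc
Hoxd10, chr2:74691641-74691890, plus strand: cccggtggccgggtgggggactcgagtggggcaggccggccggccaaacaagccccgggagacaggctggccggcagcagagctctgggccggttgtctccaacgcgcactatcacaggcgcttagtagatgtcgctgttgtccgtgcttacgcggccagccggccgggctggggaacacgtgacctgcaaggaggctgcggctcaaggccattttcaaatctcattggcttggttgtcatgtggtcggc
The pair of overlapping matches in Hoxd13 begins 126 bases before the start, and the matches in Hoxd11 begin 86 and 30 bases before it. Hoxd13 had 31 CG dinucleotides and 74.4% G or C, Hoxd12 had 10 and 55.6%, and Hoxd10 had 20 and 65.6%. Hoxd11 had 2 and 44.8% at the start shown. At its other RefSeq start it had 20 and 60.4%, with no match to ATAAA on either strand. RefSeq promoters were at hand for 19 of the 33 genes, with 21 starts, and held a median of 13 CG dinucleotides against 6 over 32851 promoters of the same length. The core ATAAA, either strand, occurred in 7 of the 21 (33.3%) and in 37.3% of all promoters. The composite TGATNNAT, a form of the joint Pbx and Hox site, searched on both strands, occurred in 3 of 21 (14.3%) and in 7.68% of all. The median CG count was 13 both for the 11 starts of genes above background throughout and for the 4 starts of genes below it everywhere. It was 9 for the 6 starts of genes above it in 1 or 2 samples. Only 4 of the 9 genes below background everywhere had a start at hand, so these medians cannot show whether the count goes with detection.

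Group 9 was above background in at least 2 samples for each of its 4 genes. Hoxa9, a regulator of blood stem cells and of the lumbar region, read 24389, 27474 and 28131 on its leading probe set, a mean of 26665 ± 1998 (SD, n = 3). Hoxd9, expressed in hindlimb and caudal trunk, read 630.2, 538 and 663, a mean of 610.4 ± 65.0 (SD, n = 3). Both were above background in each sample and differed between samples by at most 1.13-fold and 1.37-fold. Hoxb9, a thoracic gene, read 172, 345 and 159, which was 1.27, 1.36 and 0.80 times background. Hoxc9, which sets thoracic motor neuron identity, read 40.2, 309.6 and 199, below background in replicate 1 and at 1.01 times background in replicate 3. Replicate 2 was at least 1.95-fold over replicate 1 for Hoxc9, whose lowest value, like those of Hoxa11 and Hoxd11, was in replicate 1. Dim probe sets in general often read low there. Of all probe sets above background in every sample, the low tertile by level held 7204. In replicate 1, 4442 of these lay below the mean of the other samples.

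Of the central genes, both of group 8 were above background. Hoxc8, a gene of the brachial and thoracic trunk, read 974, 1018 and 943, a mean of 978 ± 37.9 (SD, n = 3). Hoxd8 read 1738, 1601 and 1513 on its leading probe set, a mean of 1617 ± 114 (SD, n = 3). Its other probe set read 1720, 1116 and 1388, with 1.80-fold between replicates 1 and 2 after alignment. In group 7, Hoxb7 was below background (47.8 to 65.8) and Hoxa7 read 160.0, 40.5 and 24.9, passing in replicate 1 alone at 1.18 times background. In group 6, Hoxc6, known from thoracic trunk and mammary gland, read 321, 419 and 482 on its leading probe set, above background in each sample. Hoxb6 stayed below it at 73.7 to 101.4. In group 5, Hoxc5 read 499, 269 and 255 on its leading probe set, with replicate 1 at 2.08-fold over replicate 3 after alignment and replicate 2 at only 1.06 times background. Hoxa5, needed for lung and cervical skeleton, was above background on both probe sets, and Hoxb5 on none (26.1 to 84.6).

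Anterior genes are known for the hindbrain, pharyngeal arches and neck. Group 2 was detected in full. Hoxa2, the selector of the second pharyngeal arch, read 335.5, 378 and 379.5, a mean of 364 ± 25.0 (SD, n = 3). Hoxb2, a hindbrain gene, read 791, 1025 and 807, a mean of 874 ± 131 (SD, n = 3). Both varied less than most probe sets above background in every sample. Their SDs of log2 signal were 0.07 and 0.11 (n = 3), beside a median of 0.36 over all such probe sets. Hoxb3 read 334, 439 and 707, with replicate 3 at 1.99-fold over replicate 1 and 1.77-fold over replicate 2. Hoxa3, required for thymus and parathyroid, counted as detected only because different probe sets passed in different samples. None of its 4 probe sets exceeded background in all of them, and its leading one read 140, 440 and 94.3 (1.03, 1.74 and 0.48 times background). Hoxc4 read 516, 156 and 395 and missed background in replicate 2, below replicate 1 by at least 2.39-fold. Hoxd3 (77.8 to 170.4), Hoxa4 (leading probe set 9.70 to 59.0), Hoxb4 (leading probe set 8.32 to 48.2), Hoxb1 (61.2 to 109) and Hoxd1 (42.6 to 46.9) did not exceed background in any sample.

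For 11 genes more than 1 probe set was measured, and these often disagreed. In 4 of them (Hoxb3, Hoxc5, Hoxc6 and Hoxd13) some probe sets were above background throughout and others were not. The sharpest case was Hoxd13, whose other probe set read 76.9, 235 and 27.1, below background in each sample, beside about 40748 on the leading one. For Hoxc5 the other probe sets stayed between 3.44 and 21.8. Hoxa9 read 483, 756 and 659 on its other probe set, above background but with replicate 1 lowest and replicate 2 highest, whereas the leading one differed by at most 1.13-fold between replicates 2 and 3. In the 5 genes with several probe sets above background throughout, the samples, once aligned, ranked alike on both for Hoxa10, Hoxc6 and Hoxd8 and differently for Hoxa5 and Hoxa9. Hoxa5 read 1433, 808 and 1146 on the leading probe set and 466, 1089 and 529.5 on the other, so replicate 2 was lowest on one and highest on the other. The leading Hoxa5 probe set carries the suffix x, used where probes may bind related transcripts, and 7 of the 48 members carry such a suffix (s, x or a). Control ratios of 3′ over 5′ signal, a sign of RNA and amplification quality, also differed between samples. They stood at 7.38, 2.21 and 4.42 for β-actin and at 21.5, 14.9 and 14.1 for Gapdh, and their part in these disagreements was not tested.

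**Figure D2:**
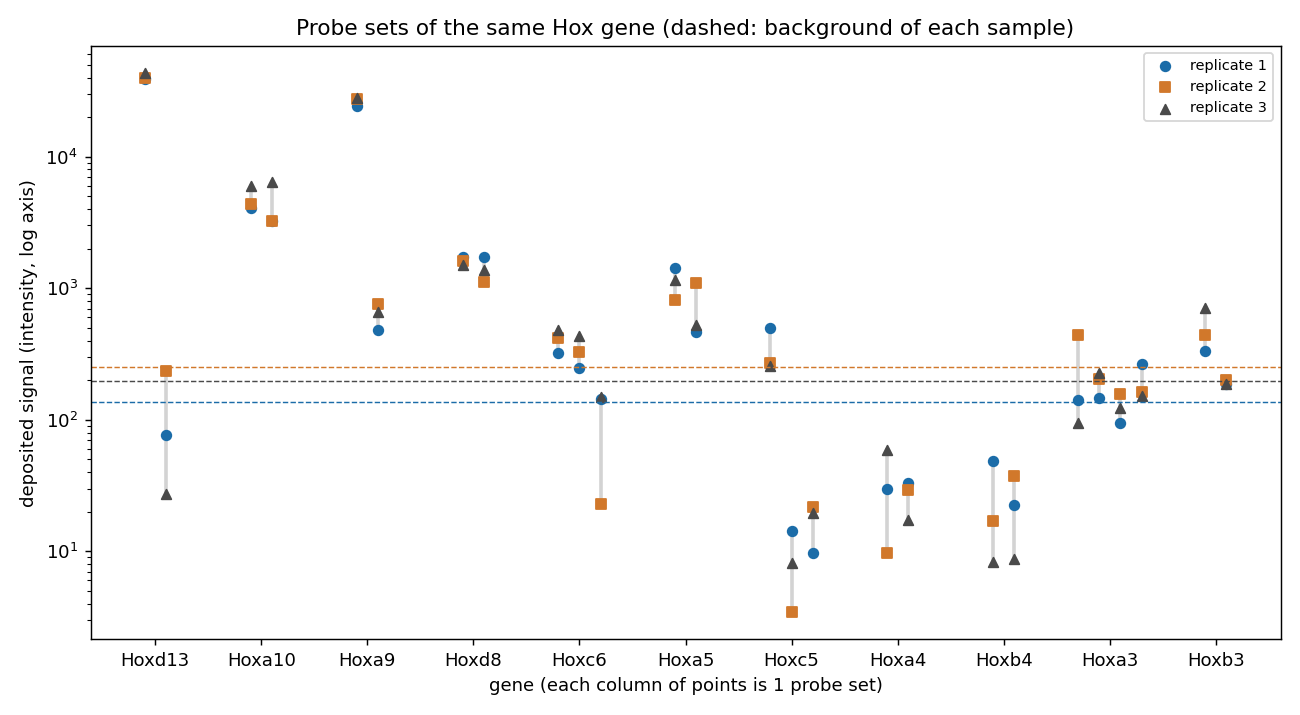
Deposited signal (log axis) of each probe set of the 11 Hox genes with several, 1 point per sample, grey bars spanning the 3 samples and dashed lines at each sample's background. The probe sets of Hoxd13 and Hoxa9 stand far apart, those of Hoxa10 and Hoxd8 lie together.

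Replicate error was then read from the 21 Hox probe sets above background in every sample. Their median SD of log2 signal was 0.27 (n = 3), beside 0.36 over all 21612 such probe sets, and 13 of the 21 lay below that overall median. The narrowest were Hoxc10 (0.07), Hoxa2 (0.07), Hoxc8 (0.09) and Hoxa9 (0.09), and the widest were Hoxc5 (0.63), the other probe set of Hoxa10 (0.59) and Hoxc13 (0.57). SD depends on level, with medians of 0.42, 0.37 and 0.32 over all probe sets of the low, middle and high tertile. Within these tertiles 6 of 10, 4 of 6 and 4 of 5 Hox probe sets lay below the median of the tertile. By block the median SD was 0.26 over 10 posterior, 0.40 over 8 central and 0.11 over 3 anterior probe sets. Without replicate 3 the overall Hox median was 0.26 (n = 2). Members were admitted by passing background in each sample, so these values describe the detected members and not the family.

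**Figure D3:**
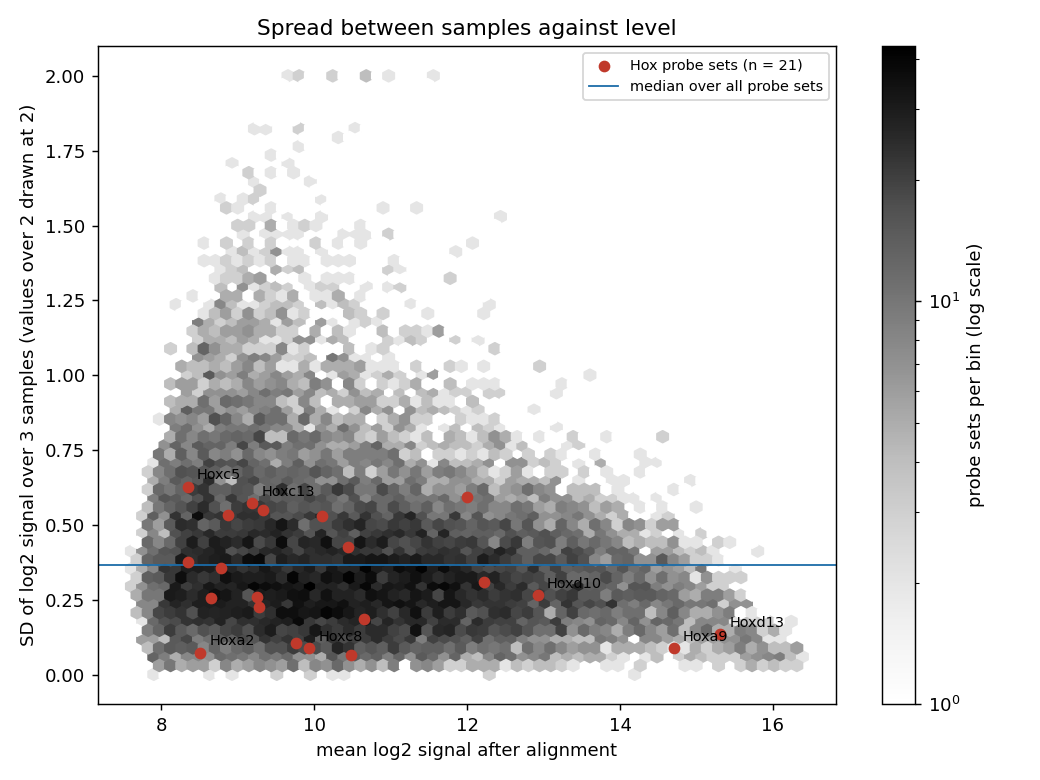
SD of log2 signal over 3 samples against mean log2 signal after alignment, for all 21612 probe sets above background in every sample (grey, density on a log scale) and the 21 Hox probe sets among them (red). Hox points lie on both sides of the overall median of 0.36 (line), with Hoxc5 highest at 0.63.

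Differences over 2-fold were counted over the probe sets above background in every sample, a filter that leaves out genes that fell below it in 1 sample. Between replicates 1 and 2 they were found in 2 of 21 Hox probe sets (9.52%), those of Hoxc5 and Hoxa5, beside 20.2% of all probe sets. Between replicates 1 and 3 it was again 2 (Hoxc13 and Hoxc5) beside 13.7%, and between replicates 2 and 3 it was 1 (the other probe set of Hoxa10) beside 9.85%. With log2(signal + 100) the first 2 counts were 0, and with all probe sets setting the alignment the first was 4. Outside the filter, bounds over 2-fold were found for Hoxd11 (at least 4.03 and 3.07, replicates 2 and 3 over 1), Hoxc4 (at least 2.39, replicate 1 over 2) and Hoxa3 (at least 2.02, replicate 2 over 3). Each comparison sets 1 sample against 1 other, so no test applies.

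Blocks of the clusters were next compared between samples, as each sample's log2 value minus the average of the other two. In replicate 3, 9 of 10 posterior probe sets (of 8 genes) were on the higher side, with a median of 0.16, beside 52.9% of all probe sets and a median of 0.03. The exception was Hoxc13 at -0.88, and the highest was the other probe set of Hoxa10 at 1.01. These 10 of 17 posterior probe sets are those above background in every sample. Of those left out, Hoxd12, Hoxb9, Hoxa13 and the other Hoxd13 probe set were lower in replicate 3. Hoxc9, Hoxd11 and Hoxb13 were higher. The count was 9 of 10 under each of the 4 alignments tried, while the share over all probe sets ran from 45.2% to 52.9%. The size was small, and 6 of 10 lay above both other samples, or 3 of 10 when all probe sets set the alignment. Central probe sets in replicate 3 split 4 to 4. Of the 3 anterior ones 2 were higher, with a median of 0.12, so the higher side was not confined to posterior probe sets. In replicate 2, 7 of 8 central and 7 of 10 posterior probe sets were on the lower side (medians of -0.19 and -0.17). Over all, 12336 of 21612 were lower, with a median of -0.09. The shift over all depended on level, with medians of 0.18, -0.08 and -0.29 in the low, middle and high tertile. Without alignment 5 of 10 posterior probe sets were higher in replicate 2, with a median of 0.011. Relative to the median over all probe sets the posterior median was -0.08, and -0.01 with quantile normalization. In replicate 1 the posterior median was -0.06, the central 0.23 and the anterior -0.04 (3 probe sets), beside 0.12 over all. The low, middle and high tertile over all had medians of -0.23, 0.13 and 0.29 there. Relative to all probe sets the posterior median of replicate 1 was -0.18, or -0.22 with quantile normalization. The corresponding value in replicate 3 was 0.13, or 0.12 with quantile normalization. Replicate 3 differs from the others in landmark and in the signs of sex together, which cannot be told apart. It also had the least signal of liver and skeletal muscle genes, with medians of -3.68 over 6 and -1.54 over 10 genes. Not every list of other tissues was lowest in replicate 3, as given below. The part of other tissues in the posterior values was not tested.

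**Figure D4:**
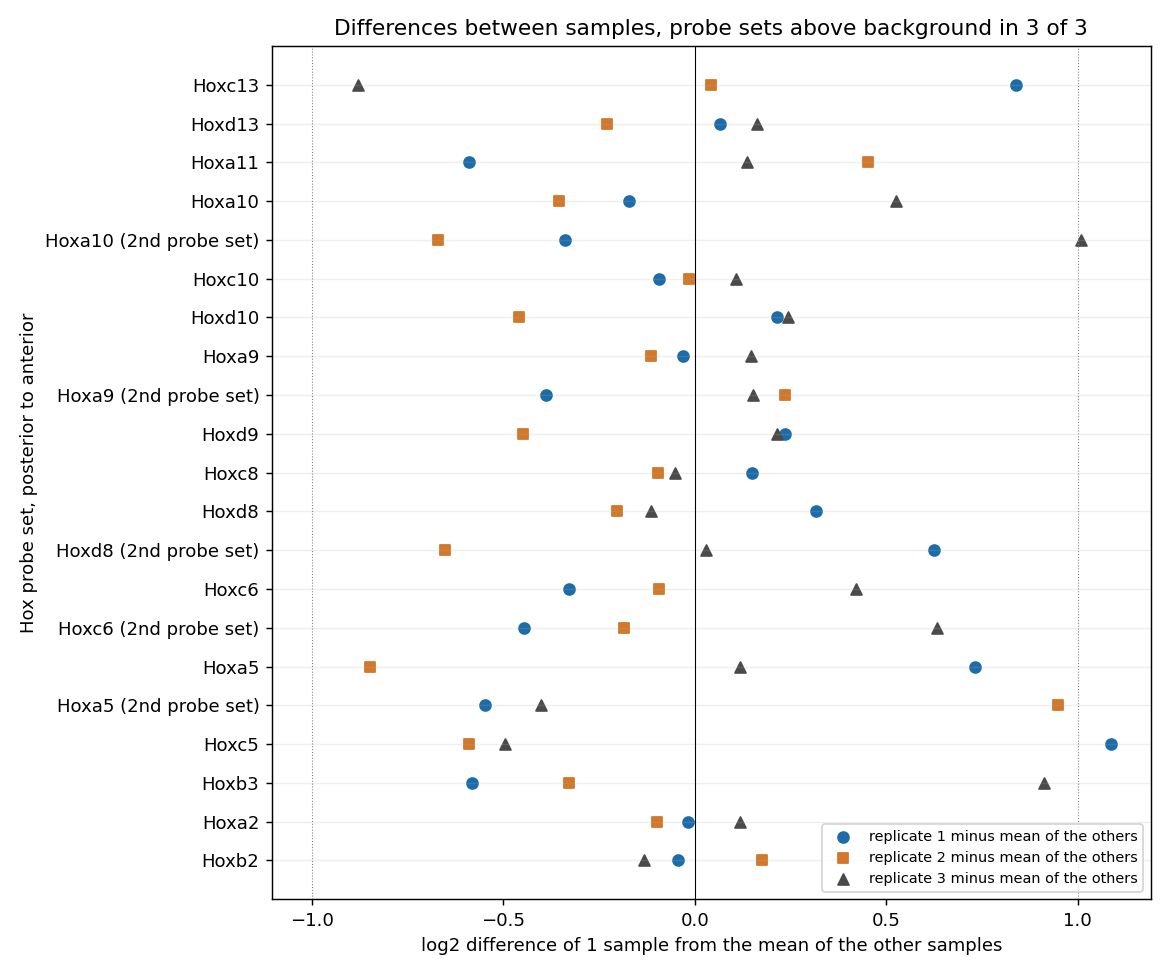
Each sample's log2 signal minus the average of the other two for the 21 Hox probe sets above background in every sample, from posterior (top) to anterior (bottom), with dotted lines at 2-fold. Replicate 3 (triangles) lies right of 0 in 9 of 10 posterior probe sets, the exception being Hoxc13, and in 2 of 3 anterior ones.

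Markers of other tissues also differed between samples. Liver genes exceeded background in 6, 4 and 3 of 6 measured in replicates 1, 2 and 3, with summed signals of 113076, 51840 and 8966. Skeletal muscle genes did so in 8, 7 and 7 of 10, with sums of 25097, 7928 and 3508. Thus replicate 1 was highest and replicate 3 lowest in both lists, the order also seen in Hoxc13 (799.7, 648 and 384). Some tubercle markers, such as Pitx1 and Acta2, had this order too, while others, such as Shh and Tbx4, did not. Hoxc5 was likewise highest in replicate 1, but after alignment it was lowest in replicate 2. The part of liver and skeletal muscle in the Hoxc13 and Hoxc5 values was not tested. Erythroid genes exceeded background in 6 of 6 in each sample. Their sums (67723, 93487 and 80227) were mostly Hbb-y, while the median log2 difference from the other samples was 0.44, 0.26 and -1.05, lowest in replicate 3. Nerve and Schwann cell genes exceeded background in 6, 5 and 6 of 6 (sums 12066, 8426 and 8534, mostly Erbb3), with median differences of -0.28, 0.13 and -0.05. Kidney and bladder genes did so in 3 of 7 in each sample (sums 5040, 4009 and 2803, mostly Upk1b in replicates 1 and 2), with median differences of -0.25, 0.22 and 0.12, and hindgut genes in 2, 2 and 1 of 5 (1303, 995 and 444). Of the spinal cord and brain genes, where anterior Hox genes act, 5 of 6 were below background in every sample, among them Olig2 and Neurog2, and Pax6 alone passed, in replicate 3 (64.1, 165 and 209).

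For the landmark, limma compared replicate 3 with the pair with indented footplates across 29065 probe sets that passed background at least once, of which 33 were Hox. It called 0.0% of all probe sets and 0 of 33 Hox probe sets at a Benjamini-Hochberg adjusted p under 0.05. Unadjusted p was under 0.05 for 2.08% of all and for 0 of the Hox probe sets, the adjusted p from limma being 1.00 for each Hox probe set. Differences (log2, replicate 3 minus the others, ± SE) were 0.16 ± 0.61 for Hoxd13, 0.53 ± 0.60 and 1.01 ± 0.61 for Hoxa10, 0.91 ± 0.60 for Hoxb3 and -0.88 ± 0.64 for Hoxc13. The median over the 33 was 0.12, beside 0.05 over all. With 1 sample in an arm and 1 residual degree of freedom the fit could hardly make a call. Even the 3 Xist probe sets, each higher by 7.69 or more on the log2 scale, had an adjusted p of 1.00 from limma, so these counts say nothing on whether Hox levels differ with the landmark. With either replicate 1 or replicate 2 left out no test remains.

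Hox proteins bind DNA together with TALE homeodomain cofactors of the Pbx, Meis and Pknox families. Of 8 measured cofactor genes 5 exceeded background throughout, close to the share of 61.0% over all genes. Meis2 read 14106, 11685 and 12656, Pbx3 8777, 7326 and 8538, Meis1 3720.4, 3252 and 6548 and Pbx2 3775, 3365 and 7407. For Meis1 and Pbx2, as for Hoxa10, replicate 3 was highest. Pknox1 read 405, 1222 and 648, while Pbx4 and Meis3 were below background in each sample and Pknox2 (326, 215 and 233) was above it in 2. Of 21 regulators of the clusters 17 exceeded background throughout, beside 61.0% of all genes. These included the Polycomb genes Ezh2 (13908 ± 1624), Eed (12511 ± 1921), Suz12 (36859 ± 6730) and Bmi1 (28445 ± 3596), which keep Hox genes silent, the activating methyltransferase gene Kmt2a (2272 ± 676) and the insulator factor gene Ctcf (14887 ± 477; SD, n = 3 for each). Cdx1, Cdx2 and Cdx4, which switch on Hox genes in the early tail bud, were below background in every sample. Gdf11, a signal that starts posterior Hox expression in the trunk, read 144, 422 and 201.01, low but above background in each.

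Genes that respond to Hoxa13 or Hoxd13 in limb or tubercle were above background throughout in 5 of 7 measured, beside 61.0% of all genes. The ligands Bmp2 and Bmp7 read 3047, 4142 and 3171 and 6585, 4210 and 3696, and the secreted antagonist Sostdc1 17854, 19420 and 12470. Epha7, an ephrin receptor of limb and tubercle mesenchyme, read 6571, 16833 and 8711 with replicate 2 highest, and Aldh1a2, which makes retinoic acid, read 549, 638 and 557. Fgf8 (9.12 to 12.4) and Epha6 (51.0 to 135) were below background. No manipulation of a Hox gene is part of the study, so these levels show only that the genes were detected beside Hoxd13.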

How the data were processed

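RNA of 3 genital tubercles was amplified in 2 rounds, labelled with biotin and hybridised to 1 array each, per the labels' protocols. Each probe set has 1 linear intensity per array, computed by the authors in GCOS according to the submitters' processing notes. Version and settings: not given in the sources used here. The trimmed mean (2% cut from either end) was 1500.0 in each array, so the authors had scaled them. All columns were matched to samples, with 0 left unused. Of 45101 probe sets 64 controls were set aside. A platform annotation gave 34945 probe sets 1 symbol, 932 several and 9160 none; 3 Hox probe sets with several symbols were left out. All 48 member probe sets matched RefSeq (GRCm38.p6) by Entrez identifier.

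Signals under 1 were set to 1, log2 transformed and aligned on the median of probe sets above background in every sample, whose medians differed by 0.23 (0.70 over all probe sets). Folds written "at least" take the background of the dim array, or its own signal if higher, as the lower value. The landmark contrast used limma 3.58.1 (lmFit, eBayes, two-sided, Benjamini-Hochberg over all probe sets fitted) in R 4.3.3, tested on simulated data; other values used Python 3.11.15 with pandas 2.3.3. Alternatives covered background, alignment, floor, probe set choice and each sample left out. Each Hox gene is named, detected ones with 3 signals. Members, lists and blocks were chosen with earlier results of these data known. At most 10 probe sets held equal values in any pair of arrays, so no column is a copy of another. That each array is its own sample rests on the labels. The number of arrays limits the precision.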

Additional observations from a re-analysis of the deposited data

How the results depend on the processing

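Among values recomputed under an alternative, 112 stayed within the range allowed (1.5 times for a count, the spread between samples for a median) and 20 moved. Background at a fixed signal of 500 left 10 Hox genes above it in every sample, 1 anterior and 3 central. Leaving out 1 sample at a time gave 18 to 19 Hox genes (anterior 4 to 5, central 5, posterior 8 to 10) and a median SD of 0.26 to 0.29. Over all 48 member probe sets the median SD was 0.47. The central median became 0.076 in replicate 1 and -0.00998 in replicate 2 without alignment, -0.44 in replicate 2 with quantile normalization, and 0.63 and -0.51 in replicates 1 and 2 with alignment on all probe sets. That alignment also gave posterior medians of 0.34 and -0.49 in replicates 1 and 2, beside 0.52 and -0.41 over all probe sets. The whole array moved alike, because these alignments shift each array by a constant. Values relative to the whole array are therefore fixed across them, at -0.18 and -0.08 for posterior and 0.11 and -0.10 for central medians. Only quantile normalization could change them, and it gave -0.22 and -0.01, and 0.17 and -0.38. Counts over 2-fold between replicates 1 and 2 became 1 unaligned, 4 aligned on all probe sets and 0 with log2(signal + 100). The last also gave 0 between replicates 1 and 3. Between replicates 2 and 3 the count was 0 with leading probe sets only or with quantile normalization. The causes of the other moves were not tested. In the landmark contrast limma called 1 probe set, not a Hox one, among those above background in every sample, and the median Hox difference was 0.020 to 0.063 with 1 of the other samples left out. No paired analysis was possible because there is 1 group. Signal over background limits the calls of genes that lie near it in some sample, such as Hoxa13, Hoxd12, Hoxa7, Hoxb9, Hoxc9, Hoxc5, Hoxa3 and Hoxd11.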

Other observations

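Genes that flank the Hox clusters in the genome were 15 in number among those measured, 12 of them above background in each sample, beside 61.0% of all genes. Evx1, a homeobox gene beside Hoxa13, read 387, 619 and 536, whereas Evx2, its counterpart beside Hoxd13, read 107, 187 and 136 and was below background in each. Lnpk and Mtx2, on either side of the Hoxd cluster, read 889, 1484 and 1869 and 3524, 2923 and 3244. Skap2, a neighbour of the Hoxa cluster, read 2041, 2231 and 2084, with an SD of log2 signal of 0.05 (n = 3).

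All 3 non-coding RNAs of the clusters that were measured exceeded background in each sample, beside 61.0% of all genes. Hoxa11os, transcribed opposite to Hoxa11, read 4419, 3774 and 3070 on its leading probe set, highest in replicate 1 and lowest in replicate 3, while Hoxa11 read 312, 591 and 463 with replicate 1 lowest. Hoxd3os1, opposite Hoxd3, read 1603, 1627 and 1140, although Hoxd3 itself stayed below background in every sample at 77.8 to 170.4. Hoxb5os read 182, 323 and 214 beside Hoxb5, which was not above background. The listed RNAs Hotair, Hottip, Hotairm1, Hoxb3os, Haglr and Mira were not analysed here.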
